A study of Homo sapiens with 4 samples.

Results

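The genes described here are the metallothioneins MT1E, MT1F, MT1G, MT1M, MT1X and MT2A, the zinc sensor MTF1 and the zinc exporter SLC30A1. They were taken by gene symbol from the deposited counts and make up 8 of 50868 genes. Of these, 5 passed the filter on low counts (MT1F, MT1X, MT2A, MTF1 and SLC30A1), and MT1E, MT1G and MT1M had 0 counts in every library. Messenger RNA of A549, a human lung adenocarcinoma cell line, was sequenced in 4 libraries. There were 2 control libraries, from cells carrying an empty vector, and 2 libraries from cells made to overexpress USP12, a ubiquitin-specific protease that removes ubiquitin from other proteins. No further agent or time point is given for either group, and the vector of the sequenced cells is not detailed. As nothing says that replicates were separate cultures, p-values measure only the spread between these samples, which may be technical.

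Metallothioneins are small cysteine-rich proteins that bind zinc, copper and cadmium in the cytosol. When free zinc rises, it binds the zinc fingers of MTF1 (metal regulatory transcription factor), which then binds short metal response elements upstream of the metallothionein genes and SLC30A1 and raises their transcription. SLC30A1, also called ZnT1, sits in the plasma membrane and carries zinc out of the cell, and glucocorticoids and heavy metals are further known inducers of metallothioneins.

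The 6 metallothioneins lie in one cluster on chromosome 16 of GRCh38. MT2A (ENSG00000125148) spans 56608584 to 56609497 on the plus strand, MT1E (ENSG00000169715) 56625475 to 56627112, MT1M (ENSG00000205364) 56632659 to 56633981, MT1F (ENSG00000198417) 56657731 to 56660698 and MT1X (ENSG00000187193) 56682470 to 56684196, all on the same strand. MT1G (ENSG00000125144), at 56666730 to 56668065, is on the minus strand. MTF1 (ENSG00000188786) lies on chromosome 1 from 37809574 to 37859592 and SLC30A1 (ENSG00000170385) on the same chromosome from 211571568 to 211579161, both on the minus strand. MT1X shares its strand with the overlapping noncoding gene RP11-343H19.2 and MTF1 is overlapped by an antisense gene, RP11-109P14.8, and both noncoding genes had 0 counts in every library.

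Promoter sequence was printed for the 3 genes whose windows held the core of the metal response element, because it is through this element that MTF1 acts. The element was searched as TGCACNC and TGCGCNC on both strands in the 250 bases before the start site, from RefSeq on GRCh38.p14, in which 4 of the 8 genes had an entry (MT1X, MT2A, MTF1 and SLC30A1). Sequences run 5′ to 3′ along the gene's strand, with each match in capitals. MT2A is at chr16:56608334-56608583, MT1X at chr16:56682220-56682469, both on the plus strand, and SLC30A1 at chr1:211579162-211579411 on the minus strand.
MT2A: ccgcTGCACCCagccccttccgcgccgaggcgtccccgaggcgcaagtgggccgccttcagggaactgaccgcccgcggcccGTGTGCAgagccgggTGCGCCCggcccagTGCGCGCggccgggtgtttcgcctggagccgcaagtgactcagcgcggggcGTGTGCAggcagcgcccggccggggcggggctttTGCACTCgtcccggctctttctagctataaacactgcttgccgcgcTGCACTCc
MT1X: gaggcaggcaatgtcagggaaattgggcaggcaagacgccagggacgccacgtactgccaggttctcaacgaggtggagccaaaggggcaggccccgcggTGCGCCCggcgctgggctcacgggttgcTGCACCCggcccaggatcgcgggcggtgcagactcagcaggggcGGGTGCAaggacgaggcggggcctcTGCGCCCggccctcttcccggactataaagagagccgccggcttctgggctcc
SLC30A1: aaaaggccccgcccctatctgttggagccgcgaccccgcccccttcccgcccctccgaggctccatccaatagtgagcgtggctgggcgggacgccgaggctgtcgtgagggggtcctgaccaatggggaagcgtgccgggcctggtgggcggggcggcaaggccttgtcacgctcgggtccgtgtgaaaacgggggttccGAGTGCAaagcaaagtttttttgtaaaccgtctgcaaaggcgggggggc
The MT2A window held 7 matches and the MT1X window 4, the closest of which to the start site began at -8 in MT2A and -53 in MT1X. SLC30A1 had 1 match, on the reverse strand at -49, and the window of MTF1 had 0. Across 35116 promoters of the same length, 24.8% held at least 1 match, 0.37% at least 4 and 0.031% at least 7. A match describes the sequence and does not show that MTF1 is bound there.

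The totals of the libraries were between 14280081 and 16305356 counts, so that 3 counts correspond to 0.166 to 0.227 CPM (counts scaled by the TMM method to a library of the same size). USP12 had 15.2 and 34.4 CPM in control cells, against 1745 and 2235 CPM with USP12 (log2 fold change 6.32, quasi-likelihood adjusted p = 0.0975). The A549 markers KRT7, KRT8, KRT18, KRT19, CDH1 and ALDH1A1 were all present, and CDKN2A, which A549 cells have lost, had 0 counts in every library. The control libraries differed from each other more than the USP12 libraries did, with SDs of the log2 ratio over 15222 tested genes of 1.32 and 0.62. They were more than 2-fold apart in 43.5% of the tested genes, against 7.90% for the USP12 libraries. The heading of control replicate 1 begins with a date-like number that differs from that of the other 3, and whether this marks a batch cannot be told apart from the library itself. Values given without control replicate 1 are therefore also those among libraries with the same number.

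Of the 8 genes, MT1X was the one with the largest difference between USP12 and control cells, while MT2A, the most abundant metallothionein in 3 of the 4 libraries, lay between 151 and 186 CPM in all of them. MT1F lay lower in USP12 cells, MTF1 overlapped between the groups, and SLC30A1 lay between the control libraries. No gene had an adjusted p under 0.05 by edgeR's quasi-likelihood test with Benjamini-Hochberg adjustment (called the quasi-likelihood test hereafter). This was 0 of the 5 tested among the 8 genes, beside 0% of all 15222 tested. At an unadjusted p under 0.05 by this test, 692 of all tested genes were lower and 463 higher in USP12 cells. A looser rule was an unadjusted p of 0.05 or less with a log2 fold change of at least 1 in size. By it, 1 of the 5 tested genes (MT1X) was lower, beside 4.41% of all tested genes, and 0 were higher, beside 2.92%. Without a filter on low counts 528 genes passed the adjusted threshold (2.13% of 24800), with the DESeq2 Wald test 406 (2.67%) and with edgeR's exact test 429 (2.82%). Without control replicate 1 there were 1665 (10.5%), and without control replicate 2 there were 5162 (32.2%).

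MT2A, the main type 2 metallothionein of most human cells, had 158 and 163 CPM in control cells, against 186 and 151 CPM with USP12. The groups overlapped, and the levels of all 4 libraries lay close together. Its log2 fold change was 0.07 (standard error, SE, 0.34, adjusted p = 0.984, quasi-likelihood test). This close spacing included the control libraries, between which MT2A differed by -0.05 on the log2 scale (control replicate 1 minus replicate 2).

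MT1X, a type 1 metallothionein, had 187 and 35.5 CPM in control cells, against 23.6 and 20.1 CPM with USP12. Control replicate 1 stood far above the other 3 libraries, and both USP12 libraries lay below control replicate 2, so the groups did not overlap. The log2 fold change was -2.35 (SE 0.78, unadjusted p = 0.0231, adjusted p = 0.497, quasi-likelihood test). In bulk libraries, fewer cells with a message and less of it per cell cannot be told apart. In raw counts, MT1X had 2468 in control replicate 1, 640 in control replicate 2, 328 in USP12 replicate 1 and 290 in USP12 replicate 2. The size of the difference was set by control replicate 1: without that library the log2 fold change was -0.70 (adjusted p = 0.107), and without control replicate 2 it was -3.07 (adjusted p = 0.00126, quasi-likelihood test). MT1X passed the adjusted threshold with the DESeq2 Wald test (-2.37, adjusted p = 0.0182) and without a filter on low counts (-2.32, adjusted p = 0.000641, quasi-likelihood test). Of 13 alternative fits, it passed in 4 and did not in 9, among them edgeR's exact test (adjusted p = 0.103).

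MT1F, another type 1 metallothionein, had 4.46 and 2.99 CPM in control cells, against 1.73 and 1.66 CPM with USP12. It was far less abundant than MT1X or MT2A, with 59 and 54 counts in the control libraries and 24 counts in each USP12 library. Both USP12 libraries lay below both control libraries. The log2 fold change was -1.13 (SE 0.62, unadjusted p = 0.118, adjusted p = 0.823, quasi-likelihood test). MT1F and MT1X were the 2 of the 5 tested genes whose groups did not overlap with USP12 cells lower, a pattern found in 17.0% of all tested genes. For 0 of the 5 were USP12 cells higher without overlap, as was seen in 19.5%.

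MT1E, MT1G and MT1M, type 1 metallothioneins as well, had 0 counts in all 4 libraries, which allows a level of up to 0.227 CPM in the shallowest case, for counting error alone. The metallothioneins are near-identical copies in parts, so a count of uniquely mapped fragments can miss them. Of all stretches of 50 bases in the transcript, 79.91% of MT1E, 81.44% of MT1G and 81.38% of MT1M occur at no other place in GRCh38, beside 85.92% for MT1X, 88.92% for MT2A and 93.88% for MT1F. The read length, the gene annotation and whether counting used strand are not given, and their part in the 0 counts of MT1E, MT1G and MT1M was not tested.

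**Figure D1:**
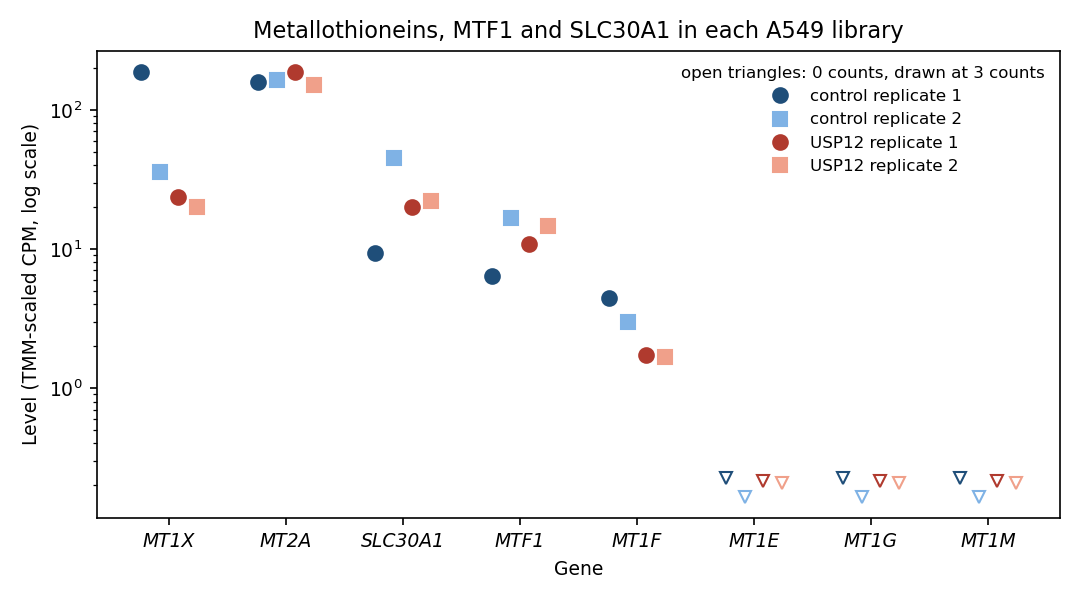
Level of the 8 genes in each library, in TMM-scaled CPM on a log axis, with 1 point per library. Circles and squares are replicates 1 and 2 of the control (blue) and USP12 (red) cells, and open triangles mark 0 counts, drawn at the level of 3 counts. MT2A lies between 151 and 186 CPM in all 4 libraries, while MT1X is at 187 CPM in control replicate 1 and at 20.1 to 35.5 CPM in the others.

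The make-up of the metallothionein messages differed between libraries. MT1X made up 53.2% of the metallothionein counts in control replicate 1 (Wilson 95% interval 51.7 to 54.6), 17.5% in control replicate 2 (16.3 to 18.8), 11.1% in USP12 replicate 1 (upper bound 12.3) and 11.5% in USP12 replicate 2 (upper bound 12.8). These intervals cover counting error only, and those of the USP12 libraries lie below those of both controls. MT2A held 44.9% and 80.6% in control cells, against 87.5% and 86.7% with USP12. As MT1X and MT2A make up nearly all of these counts, a lower share of one forces a higher share of the other. The level of MT2A itself lay between 151 and 186 CPM in every library. Per kilobase of transcript, which allows levels to be compared between genes, MT1X (462 CPM per kb) stood above MT2A (394) in control replicate 1, and MT2A stood above MT1X in the other 3 libraries, at 408 against 87.8 in control replicate 2, 463 against 58.4 in USP12 replicate 1 and 377 against 49.7 in USP12 replicate 2.

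The log2 ratio of MT1X to MT2A was 0.24 and -2.20 in control cells, against -2.97 and -2.91 with USP12. The groups did not overlap, but the gap between the control libraries was wider than that between control replicate 2 and the USP12 libraries. The difference of the means was -1.96 (exact permutation test, two-sided p = 0.333, the smallest that 6 groupings allow). The summed level of the 6 metallothioneins was 349 and 202 CPM in control cells, against 211 and 173 CPM with USP12, which overlap. The log2 ratio of these sums, USP12 to control, was -0.52, and it was -0.07 when control replicate 1 was left out and -0.86 when control replicate 2 was.

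**Figure D2:**
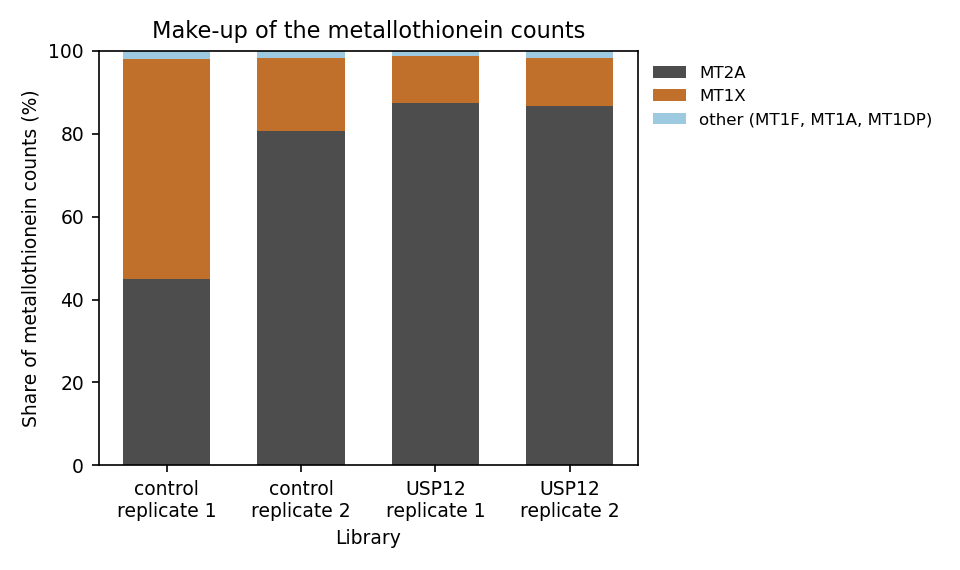
Share of the metallothionein counts (y axis, %) taken by each gene in each library (x axis), as stacked bars from 0 to 100%. MT1X (orange) takes 53.2% and 17.5% in control replicates 1 and 2, and 11.1% and 11.5% in the USP12 libraries, where MT2A (grey) holds 87.5% and 86.7%.

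Of 14 other metallothionein genes and pseudogenes looked up by symbol, 10 were analysed, and 8 of them had 0 counts in every library (MT1B, MT1H, MT1L, MT1HL1, MT1JP, MT1CP, MT3 and MT4). MT3 and MT4 are tissue-restricted forms, known from brain and from stratified epithelium. MT1A had 24 and 9 counts in control cells, against 6 and 15 counts with USP12. The groups overlapped, at a log2 fold change of -0.63 (SE 0.99, adjusted p = 0.964, quasi-likelihood test). The pseudogene MT1DP had 5 to 10 counts and did not pass the filter. MT1IP, MT1P3, MT1XP1 and MT2P1 had no entry under these symbols among the counts.

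MTF1, the zinc-sensing transcription factor, had 6.36 and 16.8 CPM in control cells, against 10.8 and 14.5 CPM with USP12. Both USP12 libraries fell between the control libraries. The log2 fold change was 0.12 (SE 0.60, adjusted p = 0.984, quasi-likelihood test), and its direction turned with the control used, at -0.41 without control replicate 1 and 1.02 without control replicate 2. Per kilobase MTF1 was the lowest of the 5 genes in each library, at 0.801 to 2.12 CPM per kb.

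SLC30A1, the plasma membrane exporter, had 9.31 and 45.3 CPM in control cells, against 19.9 and 22.2 CPM with USP12. As for MTF1, both USP12 libraries fell between the control libraries, and control replicate 1 was the lowest. The log2 fold change was -0.38 (SE 0.74, adjusted p = 0.969, quasi-likelihood test). Against control replicate 2 alone SLC30A1 was lower in USP12 cells (-1.11, adjusted p = 0.0253), and against control replicate 1 alone it was higher (1.20, adjusted p = 0.0220), so the direction rested on the control library chosen. In each of these fits the lone control library was assumed to vary like the USP12 libraries.

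MT1X and SLC30A1, both known MTF1 targets, thus ran in opposite directions between the control libraries. Control replicate 1 exceeded control replicate 2 by 2.39 on the log2 scale for MT1X and by 0.56 for MT1F, and the differences for MTF1 and SLC30A1 were -1.39 and -2.27. A control replicate 1 level at least 3-fold above that of control replicate 2, a bound smaller than the gap of MT1X, was found in 9.32% of all tested genes.

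GC content, the share of G and C bases in a transcript, moved with the gap between the control libraries. The median difference of the tested genes, control replicate 1 minus control replicate 2, was -1.02 for genes with 35 to 40% GC and 1.16 for those with 65 to 70% GC. A smaller trend ran between the mean of the USP12 libraries and control replicate 2, with medians of -0.41 and 0.22 in the same bins. Values without control replicate 1 are thus not free of it. For genes within 1 percentage point of the GC content of MT1X (49.3%) the median was -0.08, beside 2.39 for MT1X itself. For SLC30A1 (40.7% GC) the median was -0.92, beside -2.27 for the gene, and for MTF1 (46.6% GC) it was -0.30, beside -1.39. MT2A (55.6% GC) differed by -0.05 where genes like it in GC content had a median of 0.58, and MT1F (52.9% GC) by 0.56 where they had 0.33. With a GC content offset per library, chosen after the data had been seen, the log2 fold change of MT1X was -2.50 (adjusted p = 0.337) and that of SLC30A1 -0.28 (adjusted p = 0.887, quasi-likelihood test).

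**Figure D3:**
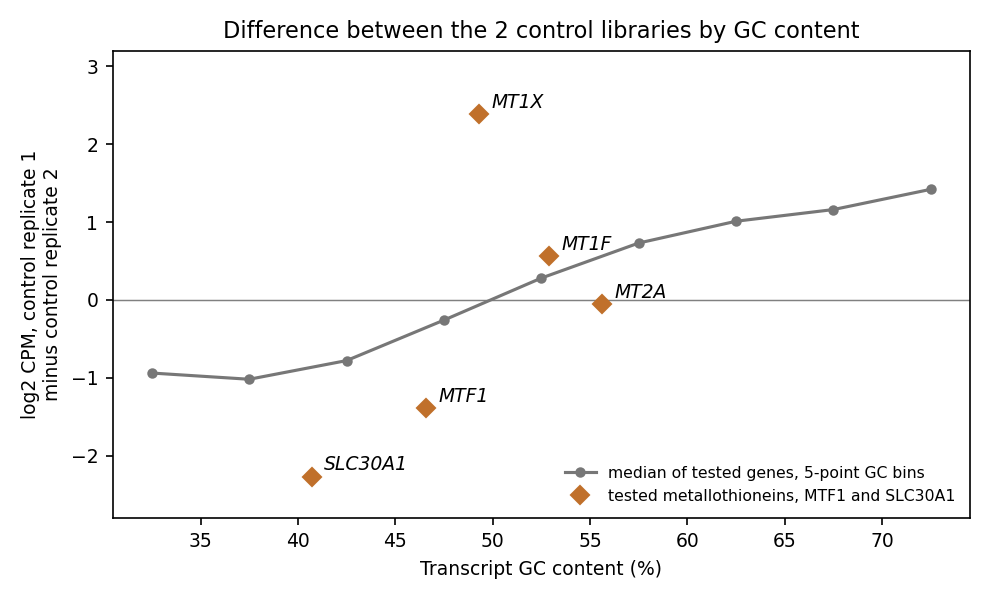
Difference in log2 CPM between the control libraries (y axis, replicate 1 minus replicate 2) against transcript GC content (x axis, %). The grey line joins the medians of the tested genes in bins of 5 percentage points, and diamonds are the 5 tested genes. The median goes from -1.02 at 35 to 40% to 1.16 at 65 to 70% GC, MT1X lies above the line at 2.39 and SLC30A1 below it at -2.27.

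**Figure D4:**
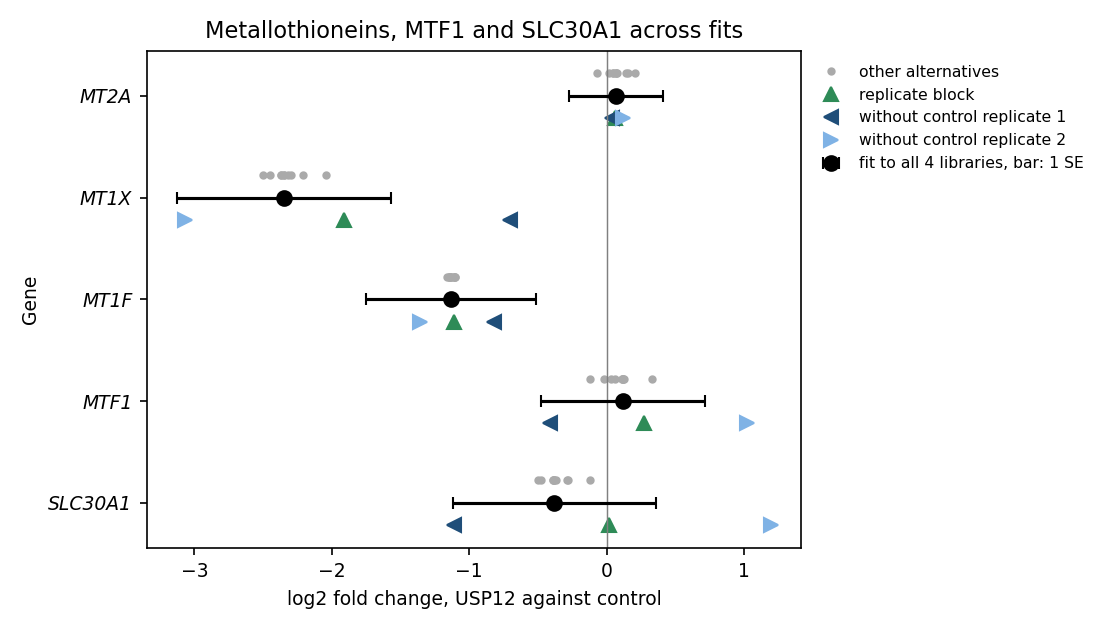
Log2 fold change of the 5 tested genes, USP12 against control (x axis), in the fit to all 4 libraries (black, bar 1 SE) and in the alternatives. MT1X and MT1F lie left of 0 in every fit drawn, with MT1X between -3.07 and -0.70, while SLC30A1 moves from -1.11 without control replicate 1 to 1.20 without control replicate 2.

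The other zinc exporters of the SLC30 (ZnT) family, most of which load zinc into vesicles and organelles, showed 0 of 6 tested genes past the adjusted threshold. Of these genes, 4 had fold changes below 0 and 2 above 0. Their median log2 fold change was -0.15, beside -0.06 over all tested genes. SLC30A4, an endosomal zinc transporter, had the highest fold change (0.89, adjusted p = 0.912, quasi-likelihood test) from 1.14 and 3.49 CPM in control cells, against 4.53 and 4.09 CPM with USP12. Both of its USP12 libraries lay above both controls, but the size rested on control replicate 1, at 1.95 (adjusted p = 0.0328) without control replicate 2 and 0.30 (adjusted p = 0.666, quasi-likelihood test) without control replicate 1. SLC30A3, which fills synaptic vesicles with zinc in neurons, had the lowest (-1.43, adjusted p = 0.920) from 12.1 and 0.831 CPM in control cells, against 3.67 and 1.11 CPM with USP12. Its USP12 libraries lay between the controls, and its log2 fold change turned from -2.31 without control replicate 2 (adjusted p = 0.0334) to 1.51 without control replicate 1.

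The zinc importers of the SLC39 (ZIP) family, which carry zinc into the cytosol, showed 0 of 11 tested genes past the adjusted threshold, with fold changes below 0 in 7 and above 0 in 4. Their median log2 fold change was -0.15. SLC39A8 (ZIP8), which also carries manganese and cadmium, had 48.3 and 25.9 CPM in control cells, against 11.6 and 11.0 CPM with USP12. Both USP12 libraries lay well below both control libraries, and the log2 fold change was -1.71 (SE 0.49, unadjusted p = 0.0127, adjusted p = 0.401, quasi-likelihood test). Unlike SLC30A1, SLC39A8 was lower in USP12 cells against either control alone, at -1.20 without control replicate 1 and -2.07 without control replicate 2. These fits share the same USP12 libraries. With all libraries SLC39A8 did not pass the adjusted threshold with the DESeq2 Wald test (-1.74, adjusted p = 0.0583) or edgeR's exact test (-1.71, adjusted p = 0.0946). Nor did it pass with the GC content offset (-2.06, adjusted p = 0.267, quasi-likelihood test). SLC39A10 (ZIP10), a plasma membrane importer, had the highest fold change of the family (0.52, adjusted p = 0.925) from 50.7 and 23.8 CPM in control cells, against 52.0 and 55.0 CPM with USP12. Its groups were close to each other except for control replicate 2, and the log2 fold change was 1.17 (adjusted p = 0.0195) without control replicate 1 and 0.11 (adjusted p = 0.683, quasi-likelihood test) without control replicate 2.

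**Figure D5:**
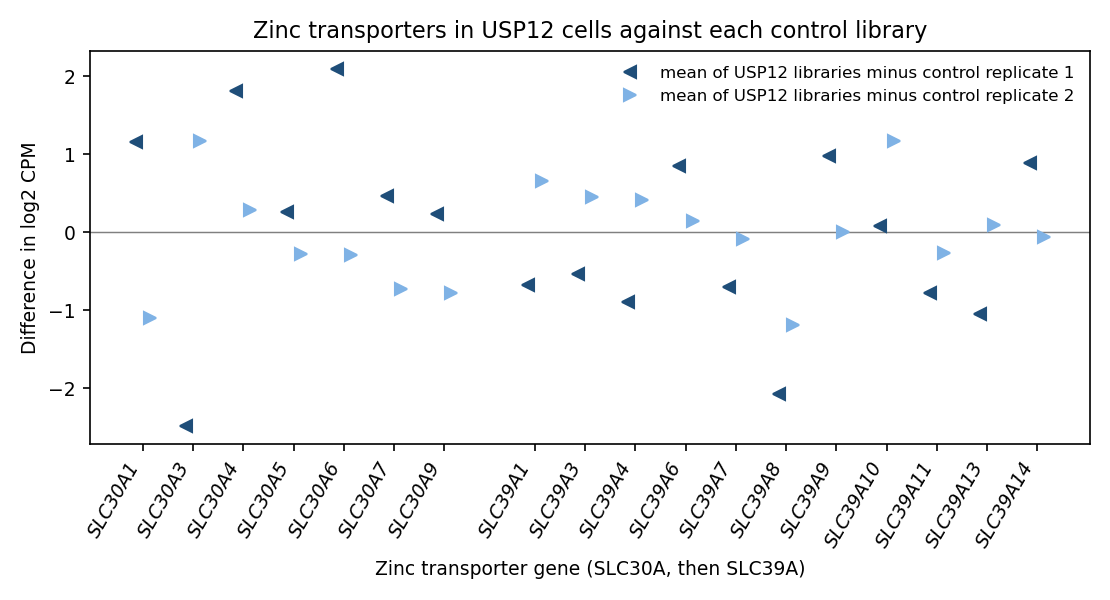
Zinc transporters of the SLC30A and SLC39A families that passed the filter (x axis), with the mean log2 CPM of the USP12 libraries minus that of control replicate 1 (dark triangles) and minus that of control replicate 2 (light triangles). SLC39A8 lies below 0 against both controls, at -2.08 and -1.19, while SLC30A1 lies at 1.16 against control replicate 1 and -1.10 against control replicate 2.

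Genes of copper handling, the other metal that metallothioneins bind, showed 0 of 11 tested genes past the adjusted threshold (8 below 0, 3 above, median log2 fold change -0.12). They ranged from SCO2, a copper chaperone of cytochrome c oxidase, at -0.53 (adjusted p = 0.942) to COMMD1, a copper export factor, at 0.23 (adjusted p = 0.968, quasi-likelihood test). The groups overlapped for both genes.

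Among 8 tested genes that glucocorticoids regulate, 0 passed the adjusted threshold, with 4 fold changes on each side of 0 and a median of 0.01. ANGPTL4, a secreted inhibitor of lipoprotein lipase, had 178 and 12.6 CPM in control cells, against 7.34 and 8.87 CPM with USP12. As in MT1X, control replicate 1 stood apart above the others and the groups did not overlap (log2 fold change -3.55, SE 1.16, unadjusted p = 0.0212, adjusted p = 0.479, quasi-likelihood test). Without control replicate 1 the log2 fold change was -0.63, and without control replicate 2 it was -4.42 (adjusted p = 0.000449, quasi-likelihood test). NR3C1, the glucocorticoid receptor, had 5.60 CPM in control replicate 1, 88.8 CPM in control replicate 2, and 80.1 and 110 CPM in the USP12 libraries. It was low in control replicate 1 alone, and its log2 fold change was 1.01 (adjusted p = 0.940) with both controls, 0.10 (adjusted p = 0.822) without control replicate 1 and 4.11 (adjusted p = 0.00153) without control replicate 2, by edgeR's quasi-likelihood test.

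Among 9 heat shock genes, a second stress response that heavy metals induce, 0 passed the adjusted threshold (4 below 0, 5 above, median log2 fold change 0.28). HSPA8, the constitutive cytosolic HSP70 chaperone, had 395 and 238 CPM in control cells, against 1362 and 873 CPM with USP12. Both USP12 libraries lay above both controls, at a log2 fold change of 1.82 (SE 0.42, unadjusted p = 0.00466, adjusted p = 0.301, quasi-likelihood test). HSPA8 passed the adjusted threshold with the DESeq2 Wald test (adjusted p = 0.0151) and the edgeR exact test (adjusted p = 0.0158). It did not pass with the GC content offset (1.52, adjusted p = 0.342) or with at least 10 counts required in every library (1.82, adjusted p = 0.355, quasi-likelihood test). Against either control alone it was higher too, at 2.23 without control replicate 1 (adjusted p = 0.00846) and 1.53 without control replicate 2 (adjusted p = 0.0167, quasi-likelihood test). HSPA1A, the stress-inducible HSP70, had the lowest fold change of these genes (-0.85, adjusted p = 0.914), with 80.7 and 18.6 CPM in control cells, against 28.9 and 26.1 CPM with USP12. Its direction turned with the control used, from 0.57 without control replicate 1 to -1.52 without control replicate 2 (adjusted p = 0.00528, quasi-likelihood test). HSPA1A and HSPA1B are near-identical copies, so the split of reads between them is uncertain.

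The genes whose pattern over the 4 libraries was most like the mean of MT1F, MT1X and MT2A were TSPAN4, EPCAM, RAB4B-EGLN2, HLA-E and RNF212, by the Euclidean distance between centred log2 CPM (0.0254 to 0.0896). The mean pattern was 0.96 in the first control library, 0.00 in the second and -0.38 and -0.58 in the USP12 libraries. It joins genes of unlike pattern: control replicate 1 minus replicate 2 was 2.39 for MT1X, 0.56 for MT1F and -0.05 for MT2A. Likeness to the mean is thus not likeness to each gene, and close matches are easily found among 15222 tested genes over 4 libraries. EPCAM, an epithelial adhesion molecule, had 28.5 and 14.1 CPM in control cells, against 11.0 and 9.70 CPM with USP12. TSPAN4, the nearest, had 189 and 94.9 CPM in control cells, against 72.7 and 63.2 CPM with USP12.

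Markers of other cell types were measured beside these results. The 3 endothelial markers summed to 15.4 and 8.59 CPM in control cells, against 0.432 and 1.32 CPM with USP12. The groups did not overlap for PECAM1 (log2 fold change -2.69, adjusted p = 0.447) and CDH5 (-4.94, adjusted p = 0.182, quasi-likelihood test), and VWF had 0 to 3 counts. Of the leukocyte markers, CD14 had 32.1 and 4.71 CPM in control cells, against 13.3 and 12.1 CPM with USP12, and LYZ had 11 and 27 counts, against 1 and 3. CD3E had 0 counts in every library and PTPRC at most 1. The 6 fibroblast markers summed to 18.0 and 2.94 CPM in control cells, against 20.9 and 16.7 CPM with USP12, with DCN at 0 in every library. Most of these counts were of COL1A1, with 172 and 47 counts in control cells, against 262 and 211 with USP12. LUM had 25 and 4 counts, against 12 and 12, and COL3A1 had 41 and 0, against 10 and 7. Among the epithelial keratins, KRT19 had 437 and 114 CPM in control cells, against 68.7 and 55.9 CPM with USP12 (log2 fold change -2.14, unadjusted p = 0.0169, adjusted p = 0.438, quasi-likelihood test), with control replicate 1 apart from the others as for MT1X. KRT8 (-0.84, adjusted p = 0.691) and KRT18 (-0.76, adjusted p = 0.805, quasi-likelihood test) also had both USP12 libraries below both controls. This pattern was found in 17.0% of all tested genes. For KRT7 the groups overlapped (log2 fold change 0.05, adjusted p = 0.986, quasi-likelihood test), as they did for CDH1 (-0.13) and ALDH1A1 (0.12). The part of these markers in the differences of MT1X and MT1F was not tested.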

How the data were processed

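Messenger RNA was sequenced from A549 cells in 4 libraries, 2 control and 2 USP12, grouped by the treatment label. The authors deposited raw counts per gene, whole numbers without normalization. Per the study's methods and the submitters' processing notes, stranded mRNA libraries were made, adaptors and ribosomal RNA reads were removed with Seqtk, reads were mapped to GRCh38 with Hisat2 2.0.4 and uniquely mapped fragments were counted with Stringtie 1.3.0. Neither the gene annotation nor whether counting used strand is given in the sources used here, so overlapping genes and genes at 0 counts are uncertain, and unique counting can lower genes with near-identical copies.

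Counts were analysed in R 4.3.3 with edgeR 4.0.16 (filterByExpr, TMM, quasi-likelihood test, Benjamini-Hochberg over 15222 genes). The fit used all 4 libraries and no covariate. CPM were computed with TMM scaling (prior count 2 on the log2 scale). Each standard error is the size of the fold change over the square root of F, an approximation. A level of 3 counts was taken as the floor. The steps were tested on simulated data that held no GC trend and no control library set apart from the others. That test thus does not cover these features of the data. Positions and GC content came from GENCODE release 44, and promoters from RefSeq.

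The 8 genes and all lists were chosen with earlier results of these data known. Named were the 8 genes, in each list every gene at an unadjusted p of 0.05 or less and otherwise the highest and lowest fold change, and the 5 genes nearest to the mean pattern of the metallothioneins. In lists with a gene at that p, the gene at the other end (SLC39A10, NR3C1, HSPA1A) was added with its values in view. The result of 1 listed leukocyte marker is not given. Alternatives tried were the size factors of DESeq2, library size only, no filter, at least 10 counts in every library, edgeR's exact test, the Wald test of DESeq2 1.42.0, the replicate number as a block and leaving out each library. A GC content offset, alone and with the block, was chosen after seeing the data.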

Additional observations from a re-analysis of the deposited data

How the results depend on the processing

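The fold change of MT1F kept its direction, and stayed on the same side of the threshold, in all 13 alternatives (-1.36 to -0.82), and that of MT1X kept its direction in all 13 (-3.07 to -0.70) and passed an adjusted p under 0.05 in 4 of them. MT1X was the 1 gene of the 8 that passed in the DESeq2 Wald test and in the fit without a filter. Over all genes, 528 passed without a filter (2.13% of 24800). With the DESeq2 Wald test 406 passed (2.67% of 15222) and with edgeR's exact test 429 (2.82%). With library size only 1 passed, and with the GC content offset 19. Of the genes in the metal, glucocorticoid and heat shock lists, 2 passed without a filter (ANGPTL4 and HSPA8), the same 2 with the DESeq2 Wald test and 1 (HSPA8) with the exact test. By the looser rule on unadjusted p and fold change, 1861 genes passed without a filter. In the fit without a filter the prior degrees of freedom were infinite, so its calls use no gene-wise spread. With the GC content offset, the log2 fold change of MTF1 turned to -0.02. In each of these cases the cause was not tested.

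Leaving out each library in turn gave 40 to 5162 genes past the adjusted threshold, 0 to 2 of the 8 genes and 0 to 20 genes of the lists, and 459 to 4629 genes, 1 to 4 of the 8, by the looser rule. The numbers were lowest without a USP12 library and highest without control replicate 2 (5162), against 1665 without control replicate 1. Both fits without a USP12 library had infinite prior degrees of freedom, unlike those without a control, so these numbers come from fits of different form. The fits tested between 15909 and 16137 genes. The highest numbers for the 8 genes and the lists came from the fit with the highest number over all genes. They thus do not set these genes apart from the rest. Among the 8 genes and the list genes named in the text (others were not followed here), the log2 fold changes that changed sign ran from -0.07 to 0.21 for MT2A, from -0.41 to 1.02 for MTF1, from -1.11 to 1.20 for SLC30A1, from -1.38 to 0.56 for MT1A, from -2.51 to 1.51 for SLC30A3, from -1.01 to 0.27 for SCO2 and from -1.52 to 0.57 for HSPA1A.

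The groups share replicate numbers, but nothing says that these mark a shared culture or day, and the deviations of same-numbered libraries correlated by 0.152 over genes. With the number as a replicate block, 404 of 15222 tested genes passed the adjusted threshold. Among them were 1 of the 8 genes (MT1X, log2 fold change -1.91, adjusted p = 0.0377, edgeR's quasi-likelihood test) and 3 of the lists (ANGPTL4, HSPA8 and NR3C1). The log2 fold change of SLC30A1 turned to 0.02. This block fit also had infinite prior degrees of freedom. With the block and the GC content offset together, 169 genes passed and MT1X did not (-2.04, adjusted p = 0.180). Depth limits MT1F and MT1A, with 59 or fewer counts in every library, and control replicate 1 decides the size of the MT1X difference.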
